A study of Mus musculus with 24 samples.

Results

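The 9 astrocyte genes Gfap, Vim, Slc1a2, Slc1a3, Aqp4, Aldh1l1, Gja1, Gjb6 and S100b are described across the lumbar spinal cord of mice that lacked, or had, Chrna7 in myeloid cells and were given paclitaxel or vehicle. The genes were taken by name from a table of 55418 genes, all 9 were present, and all 9 passed the filter on low counts that left 25372 genes for testing. Gfap and Vim encode the filaments of reactive astrocytes, and the other 7 are genes of the resting (homeostatic) astrocyte. RNA from the L4-L6 cord of 24 adult C57BL/6J mice, aged 8 to 10 weeks at the start, was sequenced in bulk. The mutant mice carried a myeloid-specific knockout of Chrna7, the alpha7 nicotinic acetylcholine receptor subunit (KO, named Chrna7-cKO in the labels), and the others were wild-type (WT). The sources used here do not give the Cre driver. Paclitaxel, a taxane that stabilises microtubules and causes painful neuropathy, was injected 4 times, on alternate days, at 1 mg per kg. The vehicle was a mix of Kolliphor, ethanol and water, and cords were collected on day 7, counted from the first injection. The 8 groups were KO males and females given paclitaxel, KO males and females given vehicle, WT males and females given paclitaxel, and WT males and females given vehicle, with 3 mice each. One library, number 23 in the labels (WT female paclitaxel replicate 3), had a profile unlike cord and is described apart at the end, so the comparisons rest on 23 cords, and WT females given paclitaxel have 2 of them.

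Astrocytes clear glutamate from synapses through the sodium-driven transporters of Slc1a2 (GLT-1) and Slc1a3 (GLAST), move water through Aqp4 in the endfeet that wrap blood vessels, and are joined into a network by the connexins of Gja1 and Gjb6. After injury or inflammation they become reactive: the intermediate filaments GFAP and vimentin accumulate, a response in which cytokines that signal through the transcription factor STAT3 take part. In models of nerve injury and of chemotherapy, a rise of spinal GFAP together with a loss of glutamate transporters has often been taken as the sign of such a reaction. Vim is also transcribed by endothelial cells, fibroblasts and Schwann cells, and S100b also by Schwann cells and oligodendrocytes, so these genes are less particular to astrocytes than Gfap, Aldh1l1 or Aqp4.

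The start regions of 8 of the 9 genes were matched in RefSeq (build GRCm38.p6), each with 250 bases before and 50 bases after the start. The upstream run of Gfap is shown because it is the gene by which astrocyte reaction is usually read; the short windows show the matches to the searched motifs on the strand of the gene. Capitals mark the match in each short window, and all runs are given 5′ to 3′ on the strand of the gene.
Gfap upstream, chr11:102897201-102897450, minus strand: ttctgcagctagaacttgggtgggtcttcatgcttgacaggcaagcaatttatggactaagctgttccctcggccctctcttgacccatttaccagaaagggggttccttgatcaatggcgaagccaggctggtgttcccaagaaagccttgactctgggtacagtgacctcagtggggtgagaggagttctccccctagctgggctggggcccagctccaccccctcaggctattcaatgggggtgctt
Gfap STAT match, chr11:102897184-102897212, minus strand: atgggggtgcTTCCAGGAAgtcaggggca
Slc1a3 STAT match, chr15:8710885-8710913, minus strand: ttcaggatccTTCCAAGAAatttcagtta
Vim TATA match, chr2:13574269-13574294, plus strand: ctaacagtgtTATAAAagcagcgccc
Gja1 AP-1 match, chr10:56377271-56377297, plus strand: tccttccagtTGAGTCAgtggcttgaa
The 4 motifs were searched on both strands. The STAT letters TTCNNNGAA, which occur in 8.3% of 32851 RefSeq start regions of this length, were found in Gfap, with the first base at position -2 from the start, and in Slc1a3, at position -96. The TATA letters TATAAA, held by 13.6% of the start regions, were found in Vim at position -32 and, on the other strand, in Slc1a3 at position -161. The AP-1 letters TGANTCA, held by 7.81%, were found in Gja1 at position -19. The NFI palindrome, TTGGC and GCCAA with 5 bases between them, is held by 0.0365% and was found in none of the 8. These are matches of letters and were not tested for binding, and no match says only that these letters are not in this window.

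The libraries held 88812295 to 112158154 counts, with a median of 94343662. The targeted gene, Chrna7, lay at 9.09 to 14.5 CPM (counts scaled to the total of each library) in 12 KO cords and at 9.38 to 15.9 CPM in 11 WT cords. The log2 difference of KO and WT was -0.11 (SE 0.06, edgeR adjusted p = 1.0). Neurons also transcribe this gene, so its level in whole cord does not check a loss from myeloid cells. A list of 12 astrocyte markers had a summed level of 9581 to 10550 CPM over the 23 cords, with none of the 12 at 0 in any group. This list holds every member except Vim, so it is not a measure apart from the genes under study. Library numbers 1 to 12 held WT females given vehicle, KO females given vehicle and the males of both genotypes given paclitaxel, and numbers 13 to 24 held the other 4 groups. Genotype and sex were thus balanced over this order, but the way in which the paclitaxel response differs between the sexes cannot be told apart from it. The same holds for sex within the treated or the control cords alone, and for treatment within 1 sex. In bulk tissue, fewer astrocytes and less RNA per astrocyte cannot be told apart, and this holds for every level that follows.

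Per kilobase of exon, the 9 genes spanned a wide range of levels and kept nearly the same order in every cord. S100b, a small calcium-binding protein, was highest at 709 ± 57.8 CPM per kb (SD, n = 23 cords). Gfap followed at 299 ± 32.6 CPM per kb, and Slc1a2 at 223 ± 11.8 CPM per kb. The ranges of these last 2 genes over cords overlapped, with Gfap at 241 to 386 and Slc1a2 at 204 to 242 CPM per kb, although Gfap was the higher in 23 of 23 cords. The water channel Aqp4 had 119 ± 13.8 CPM per kb. The connexins had 41.4 ± 2.23 CPM per kb (Gja1) and 37.1 ± 2.69 CPM per kb (Gjb6), with Gja1 higher in 21 of 23 cords. The least abundant genes were Slc1a3 at 15.2 ± 1.2, Vim at 12.1 ± 2.17 and Aldh1l1, the folate enzyme used as a general astrocyte marker, at 10.3 ± 1.09 CPM per kb. Among these last 3 the ranges of neighbours overlapped, with Slc1a3 above Vim in 22 of 23 cords and Vim above Aldh1l1 in 21 of 23. The transporter message of Slc1a2 was thus far above that of Slc1a3, and the filament message of Gfap far above that of Vim.

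Levels varied between cords much more than counting error allows. Vim was the most variable gene, with a coefficient of variation of 18.0% over the 23 cords, and Aqp4, Gfap and Aldh1l1 followed with 11.6%, 10.9% and 10.6%. Slc1a2 and Gja1 were the steadiest, at 5.27% and 5.39%. The part that counting alone would give, taken at the median count of each gene, was 1.54% or less for the 9 genes, with Aldh1l1 as the highest. It treats counts as independent, although mates count separately, so it may be too low.

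All 9 genes have exon lengths in the deposited table that match the GENCODE M21 models on GRCm38. Gfap lies on the minus strand at chr11:102887336-102900912 and Vim on the plus strand at chr2:13573927-13582826. The transporters lie at chr2:102658659-102790784 (Slc1a2, plus strand) and chr15:8634124-8710764 (Slc1a3, minus strand), and Aqp4 at chr18:15389496-15410982 (minus strand). Aldh1l1 lies at chr6:90486427-90600203 (plus strand), Gja1 at chr10:56377330-56402513 (plus strand), Gjb6 at chr14:57123303-57133611 (minus strand) and S100b at chr10:76253853-76261159 (plus strand). Reads were counted without regard to strand. Exons of an antisense gene overlap those of Aldh1l1 by 499 bases (Gm15756, 0.0689 CPM on average) and those of Slc1a2 by 189 bases (Gm13872, 0.0316 CPM). The noncoding gene Gm45901, on the strand of Aldh1l1, shares 105 exon bases with it and had 0.024 CPM. Dip2a, a gene at 217 CPM on the opposite strand, overlaps S100b without shared exon bases.

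**Figure D1:**
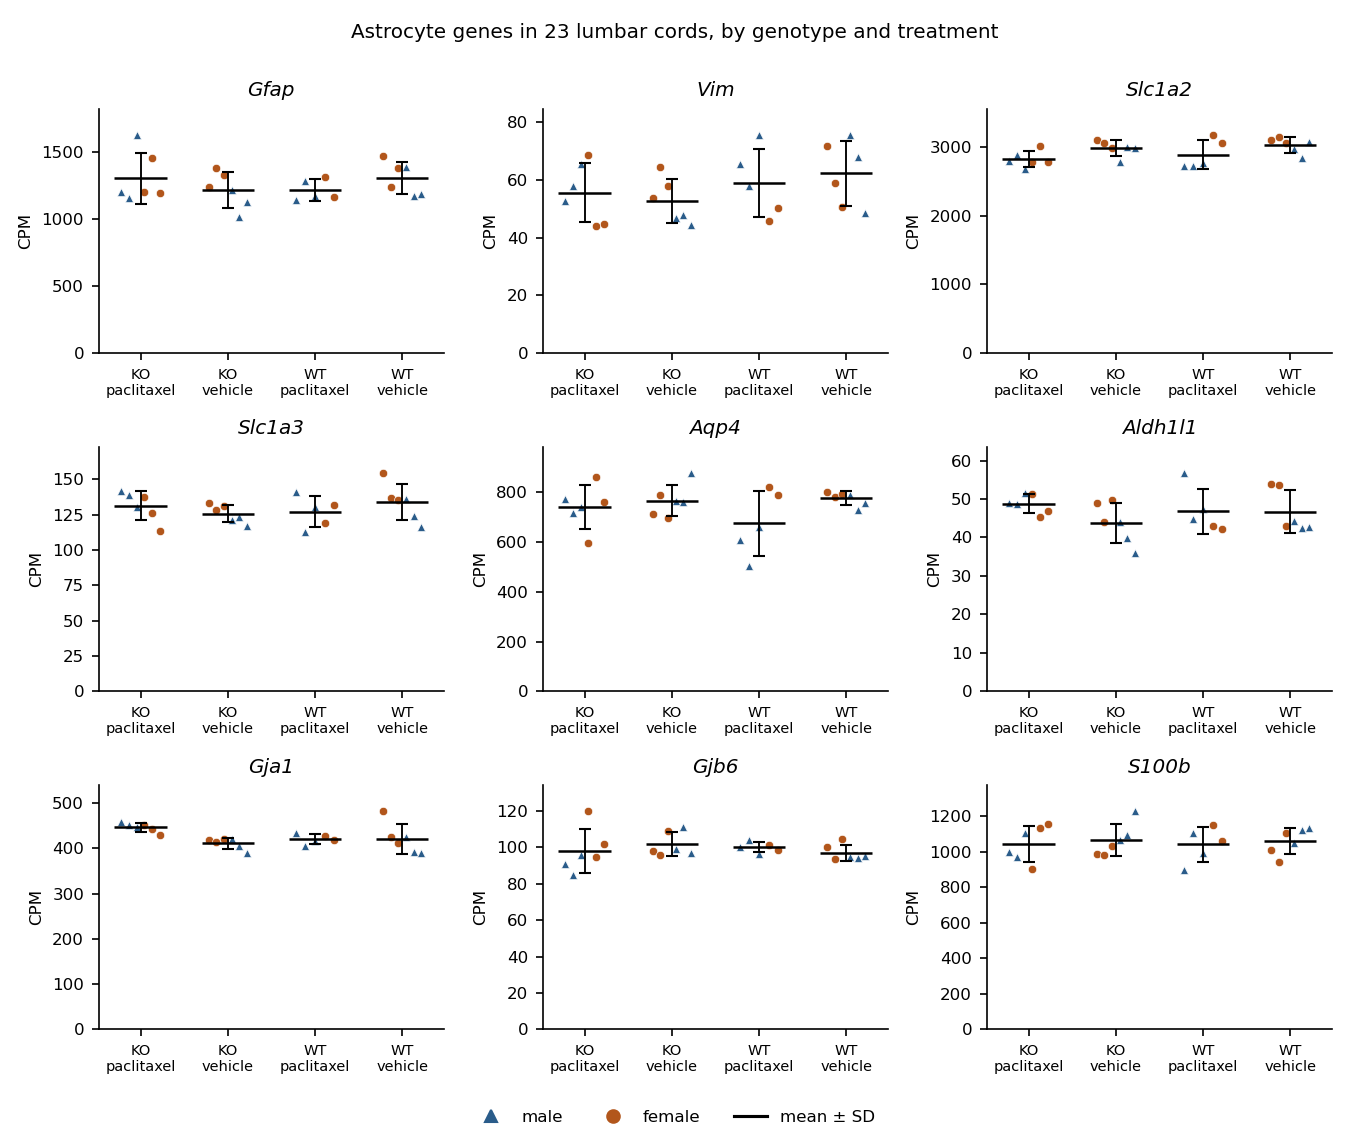
CPM (from library totals) of the 9 genes in the 23 cords, with 1 panel per gene and the groups KO paclitaxel, KO vehicle, WT paclitaxel and WT vehicle from left to right. Triangles are males and circles females, bars are mean ± SD, and every axis starts at 0. The groups overlap for all 9 genes except Gja1, where the 6 KO paclitaxel cords (429.1 to 459.3 CPM) lie above the 6 KO vehicle cords (389.7 to 421.2 CPM).

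Paclitaxel against vehicle asks whether the drug changed the cord. None of the 9 genes was called (edgeR adjusted p under 0.05) in KO cords, in WT cords or over both genotypes, so neither a rise of the filaments nor a loss of the transporters was detectable over the spread between mice. Over the whole table the genes called were 0.0236% of the 25372 tested in KO cords, 0% in WT cords and 0.0197% over both genotypes. By edgeR these were 6 genes in KO, 0 in WT and 5 over both. These counts turned on single libraries. In KO they ran from 0 without KO male vehicle replicate 2 to 332 without KO male vehicle replicate 1, in WT from 0 to 4 (without WT male paclitaxel replicate 1), and over both from 2 without WT female paclitaxel replicate 1 to 62 without KO male vehicle replicate 1. None of the 9 genes was called in these comparisons when any 1 of the 23 libraries was left out. The genes with an unadjusted p under 0.05 numbered 2863 in KO cords, 2021 in WT cords and 2583 over both genotypes. The DESeq2 Wald test called 126 genes in KO (0.497%), 4 in WT (0.0158%) and 158 over both (0.623%), and limma voom 5, 0 and 5 (0.0197%, 0% and 0.0197%), with none of the 9 genes among them.

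The filament genes come first. Gfap lay at 1156 to 1626 CPM (median 1200) in the 6 KO paclitaxel cords and at 1015 to 1376 CPM (median 1228) in the 6 KO vehicle cords. These groups overlapped widely, and the highest Gfap of the study, 1626 CPM, stood in 1 KO male given paclitaxel. In KO the log2 fold change was 0.11 (SE 0.08, edgeR adjusted p = 0.668), and it was 0.02 without that male. In WT cords Gfap lay at 1139, 1286 and 1171 CPM in the 3 paclitaxel males and at 1314 and 1160 CPM in the 2 paclitaxel females, against 1174 to 1470 CPM (median 1307) in the 6 vehicle cords. All 5 treated WT cords lay within or below the range of their controls, and the log2 fold change was -0.11 (SE 0.09, edgeR adjusted p = 0.784). Over both genotypes Gfap averaged 1263 ± 151.6 CPM with paclitaxel (SD, n = 11) and 1261 ± 129.9 CPM with vehicle (n = 12). The difference on the log2 scale was 0.0004 (SE 0.06), with a 95% interval from -0.12 to 0.12.

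Vim, the partner filament, lay at 44.05 to 68.72 CPM (median 55.29) in KO paclitaxel cords and at 44.48 to 64.42 CPM (median 50.91) in KO vehicle cords. In WT males given paclitaxel it lay at 65.36, 57.81 and 75.35 CPM and in WT females given paclitaxel at 45.68 and 50.13 CPM, against 48.51 to 75.53 CPM (median 63.41) in WT vehicle cords. Treated and control cords overlapped in both genotypes, and among treated WT cords the 3 males were above the 2 females. These males are library numbers 3, 7 and 11 and these females 15 and 19, so sex and library order cannot be told apart here. Vim had a log2 fold change of 0.09 in KO (SE 0.13, edgeR adjusted p = 0.847) and -0.15 in WT (SE 0.14, edgeR adjusted p = 0.801).

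Of the glutamate transporters, Slc1a2 lay at 2677 to 3009 CPM (median 2793) in KO paclitaxel cords and at 2776 to 3104 CPM (median 2990) in KO vehicle cords. In WT cords the paclitaxel values were 2722, 2721 and 2763 CPM in males and 3176 and 3061 CPM in females, against 2836 to 3140 CPM (median 3067) with vehicle. The 3 treated WT males were below all their controls of either sex, while 1 of the 2 treated females was the highest of all 23 cords. Sex among treated cords cannot be told apart from library order. Over both genotypes Slc1a2 averaged 2853 ± 160.9 CPM with paclitaxel and 3007 ± 108.8 CPM with vehicle, with 3 of 11 treated cords above the vehicle mean. On the log2 scale this was a difference of -0.07 (SE 0.03, unadjusted p = 0.0135, edgeR adjusted p = 0.36), which does not pass over all genes. Slc1a3 averaged 129.4 ± 10.47 CPM with paclitaxel and 129.8 ± 10.52 CPM with vehicle (log2 fold change -0.01, SE 0.04, edgeR adjusted p = 0.96).

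Aqp4, whose channel sits in the perivascular endfeet, showed a split within the treated WT cords. Its values were 609.1, 503.6 and 661.0 CPM in the WT males given paclitaxel and 820.7 and 790.5 CPM in the WT females given paclitaxel, against 728.4 to 803.4 CPM (median 785.8) in WT vehicle cords. The 3 treated males were the lowest of these 11 cords and 1 treated female the highest. Here too sex among the treated cords cannot be told apart from library order. In WT the log2 fold change was -0.18 (SE 0.07, unadjusted p = 0.025, edgeR adjusted p = 0.584). In KO cords Aqp4 lay at 594.9 to 861.0 CPM with paclitaxel and 698.3 to 877.6 CPM with vehicle, with a log2 difference of -0.04 (SE 0.07, edgeR adjusted p = 0.88).

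The connexin Gja1 was the gene of the 9 whose KO groups stood apart. It lay at 429.1 to 459.3 CPM (median 449.2) in KO paclitaxel cords and at 389.7 to 421.2 CPM (median 416.1) in KO vehicle cords. All 6 treated KO cords were above all 6 controls, as was the case, in either direction, for 0.426% of all genes tested. The log2 fold change was 0.12 (SE 0.04, unadjusted p = 0.00313), but the edgeR adjusted p was 0.231. Endothelial cells also transcribe Gja1, and 9 of 10 endothelial markers were higher in the same contrast (median log2 fold change 0.33, none called), with summed levels of 339.3 to 539.4 CPM in KO paclitaxel and 275.3 to 430.8 CPM in KO vehicle cords. Other lists leaned higher as well, with none called: 8 of 10 microglial, 6 of 6 oligodendrocyte precursor, 5 of 6 ependymal, 6 of 8 neuronal and 5 of 5 tested skeletal muscle markers. More even were fibroblasts (5 of 8), oligodendrocytes (6 of 10) and satellite glia and Schwann cells (6 of 10). Of dorsal root ganglion neuron markers 4 of 9 were higher. The part of other cells in the Gja1 values was not tested. In WT cords Gja1 lay at 433.8, 404.6 and 416.6 CPM in males and at 427.0 and 417.7 CPM in females given paclitaxel, against 390.4 to 482.0 CPM (median 418.8) with vehicle. Here the treated cords lay inside the control range, no member had WT groups apart, against 0.485% of all genes, and the log2 fold change was -0.01 (SE 0.04, edgeR adjusted p = 0.957). The other connexin, Gjb6, had log2 fold changes of -0.05 in KO (SE 0.05, edgeR adjusted p = 0.762) and 0.03 in WT (SE 0.05, edgeR adjusted p = 0.912).

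Aldh1l1 lay at 45.21 to 51.64 CPM (median 48.87) in KO paclitaxel cords and at 36.03 to 49.75 CPM (median 43.95) in KO vehicle cords. All 6 treated KO cords were above the control mean of 43.75 CPM, though the groups overlapped (log2 fold change 0.17, SE 0.06, unadjusted p = 0.0175, edgeR adjusted p = 0.33). In WT cords its log2 fold change was -0.03 (SE 0.07, edgeR adjusted p = 0.942). S100b averaged 1042 ± 95.59 CPM with paclitaxel and 1061 ± 78.79 CPM with vehicle over both genotypes, a log2 difference of -0.02 (SE 0.04, edgeR adjusted p = 0.915).

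Library 23 belongs to the WT paclitaxel group, and adding it widened the spread without adding a call. With all 24 libraries, 0 of the 9 genes were called in KO cords, in WT cords or over both genotypes, and edgeR called 0 genes of any kind in each. The WT log2 fold change of Gfap became -0.39 (edgeR adjusted p = 0.694), that of Slc1a2 -0.35 (edgeR adjusted p = 0.74), and that of Vim turned to 0.82 (edgeR adjusted p = 0.464).

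KO against WT asks how the astrocyte genes of the cord stand when myeloid cells lack Chrna7. None of the 9 genes was called over all cords, under paclitaxel or under vehicle. The genes called in all were 0.0118% of those tested over all cords, 0.00394% under paclitaxel and 0.00788% under vehicle, that is 3, 1 and 2 genes. An unadjusted p under 0.05 was reached by 852 genes over all cords, 1568 under paclitaxel and 1319 under vehicle. DESeq2 called 5 (0.0197%), 3 (0.0118%) and 4 (0.0158%) genes in the same order and limma voom 2 (0.00788%), 0 and 1 (0.00394%), none of them among the 9. With all 24 libraries edgeR called 2 (0.00809%), 0 and 1 (0.00404%), again without a member.

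Over all cords Gfap averaged 1260 ± 163.4 CPM in KO (SD, n = 12) and 1264 ± 110.4 CPM in WT (n = 11), a log2 difference of -0.01 (SE 0.06, edgeR adjusted p = 1.0). Under vehicle it averaged 1217 ± 132.9 CPM in KO and 1305 ± 121.5 CPM in WT, and under paclitaxel 1304 ± 190.9 CPM in KO and 1214 ± 79.72 CPM in WT. These differences were within the spread of the groups, with log2 fold changes of -0.11 under vehicle (SE 0.08, edgeR adjusted p = 0.911) and 0.10 under paclitaxel (SE 0.09, edgeR adjusted p = 0.875). The paclitaxel value was 0.02 without KO male paclitaxel replicate 3, the cord with the highest Gfap.

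Vim had the largest difference of the 9 genes between KO and WT over all cords (log2 fold change -0.14) and under vehicle, but not under paclitaxel. Under paclitaxel it averaged 55.6 ± 10.35 CPM in KO and 58.87 ± 11.89 CPM in WT. The log2 fold change there was -0.01 (edgeR adjusted p = 0.994). Under vehicle Vim averaged 52.56 ± 7.607 CPM in KO and 62.20 ± 11.27 CPM in WT, with 1 of 6 KO cords above the WT mean. The ranges, 44.48 to 64.42 CPM in KO and 48.51 to 75.53 CPM in WT, overlapped. The log2 fold change was -0.26 (SE 0.13, unadjusted p = 0.0584, edgeR adjusted p = 0.911). Most marker lists lay lower in KO vehicle cords, with no gene called. Lower were 10 of 10 microglial genes (median log2 fold change -0.12), 10 of 10 endothelial genes (median -0.20) and 9 of 10 genes of satellite glia and Schwann cells (median -0.05). So were 6 of 8 fibroblast (median -0.11), 7 of 8 neuronal (median -0.03) and 5 of 5 tested skeletal muscle genes (median -0.66). Of the oligodendrocyte genes 6 of 10 were lower (median -0.02), and of their precursors' genes 5 of 6 (median -0.10). Astrocyte markers were lower for 10 of 12 (median -0.05). Ependymal markers (5 of 6 higher, median 0.05) and those of dorsal root ganglion neurons (7 of 9 higher, median 0.18) went the other way. The summed endothelial level was 275.3 to 430.8 CPM in KO vehicle cords and 344.2 to 438.9 CPM in WT vehicle cords, and the summed microglial level 292.9 to 354.7 CPM in KO and 322.1 to 408.9 CPM in WT. The satellite glia and Schwann list summed to 8724 to 9629 CPM in KO vehicle and 9099 to 10050 CPM in WT vehicle cords, and the fibroblast list to 152.1 to 190.4 CPM in KO vehicle and 132.2 to 225.3 CPM in WT vehicle cords. Their part in the Vim difference was not tested.

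The homeostatic genes showed small differences. Under paclitaxel Gja1 averaged 446.9 ± 10.3 CPM in KO and 419.9 ± 11.1 CPM in WT, with 6 of 6 KO cords above the WT mean and overlapping ranges (log2 fold change 0.09, SE 0.04, edgeR adjusted p = 0.79). The largest difference among the 7 under vehicle was that of Aldh1l1, with 43.75 ± 5.233 CPM in KO and 46.72 ± 5.508 CPM in WT (log2 fold change -0.11, SE 0.06, edgeR adjusted p = 0.911). The log2 fold changes of Slc1a2 were -0.04 under paclitaxel (SE 0.04, edgeR adjusted p = 0.884) and -0.03 under vehicle (SE 0.04, edgeR adjusted p = 0.934). Within library numbers 1 to 12 and within 13 to 24, KO against WT gave Gfap log2 fold changes of 0.03 and -0.04, Vim -0.12 and -0.15, and Aqp4 0.10 and -0.01, and no member was called in either set. With library 23 included, the difference under paclitaxel of Vim became -0.99 (edgeR adjusted p = 0.512).

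The interaction of genotype and treatment, the paclitaxel response of KO minus that of WT, asks whether the knockout alters the response. It called 0 of the 9 genes and 0% of all genes, with 0 called by DESeq2 and by limma voom and 2134 at an unadjusted p under 0.05. Both filaments had positive values, 0.22 for Gfap (SE 0.12, edgeR adjusted p = 0.629) and 0.25 for Vim (SE 0.19, edgeR adjusted p = 0.732). Without KO male paclitaxel replicate 3 that of Gfap was 0.14, and without KO female paclitaxel replicate 1 that of Vim was 0.13. Gja1 had the smallest p of the 9 genes (log2 difference 0.14, SE 0.06, unadjusted p = 0.0209, edgeR adjusted p = 0.543). Slc1a3 and Aldh1l1 had values of 0.16 (SE 0.08, edgeR adjusted p = 0.592) and 0.20 (SE 0.09, edgeR adjusted p = 0.592), while Slc1a2 was at -0.01 (SE 0.05, edgeR adjusted p = 0.971) and S100b at 0.0018 (SE 0.09, edgeR adjusted p = 0.998). Aqp4 was at 0.14 (SE 0.10, edgeR adjusted p = 0.724) and Gjb6 at -0.08 (SE 0.07, edgeR adjusted p = 0.761). With all 24 libraries the value of Gfap was 0.50 (edgeR adjusted p = 0.844) and that of Vim -0.73 (edgeR adjusted p = 0.791), so the sign for Vim turned on 1 library.

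**Figure D2:**
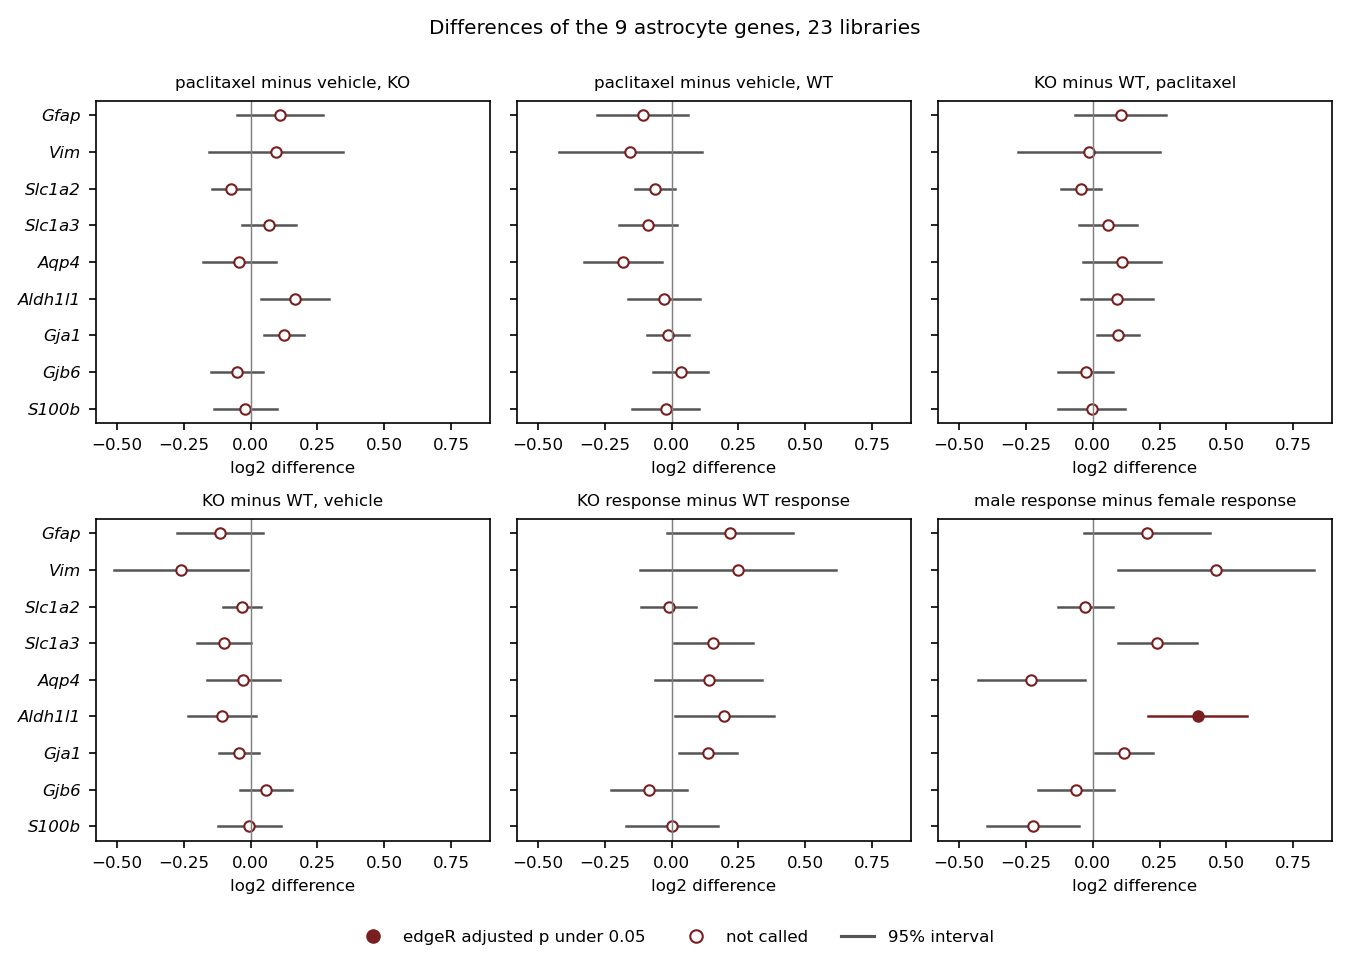
Log2 differences of the 9 genes with their 95% intervals in 6 comparisons over 23 libraries, with 0 marked by a line. Filled points passed an edgeR adjusted p under 0.05, which only Aldh1l1 did, in the difference of the male and female responses (0.39).

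Set against one another, the filaments and the homeostatic genes had ratios that overlapped between all groups. The ratio used was the mean log2 CPM of Gfap and Vim minus the mean log2 CPM of the 7 homeostatic genes, as a description without a test. In KO paclitaxel cords it lay between -0.58 and -0.10, with a mean of -0.38 ± 0.17 (SD, n = 6), and in KO vehicle cords between -0.63 and -0.19, with a mean of -0.45 ± 0.17 (n = 6). In WT paclitaxel cords it lay between -0.52 and -0.16, with a mean of -0.35 ± 0.17 (n = 5), and in WT vehicle cords between -0.49 and -0.10, with a mean of -0.30 ± 0.15 (n = 6). The paclitaxel minus vehicle differences, 0.07 in KO and -0.04 in WT, were smaller than 1 SD of any group. Without KO male paclitaxel replicate 3 the KO difference was 0.0093, and without WT female paclitaxel replicate 1 the WT one was 0.0010. The KO minus WT differences were -0.03 under paclitaxel and -0.14 under vehicle, and the paclitaxel one ran from -0.09 without KO male paclitaxel replicate 3 to 0.01 without WT male paclitaxel replicate 3. Taken as Gfap over Slc1a2 alone, the paclitaxel minus vehicle differences were 0.18 in KO and -0.03 in WT, and the KO one was 0.09 without KO male paclitaxel replicate 3. With each filament alone over the 7 homeostatic genes, they were 0.08 in KO and -0.05 in WT for Gfap, and 0.05 in KO and -0.03 in WT for Vim. The KO values were 0.01 for Gfap without KO male paclitaxel replicate 3 and -0.01 for Vim without KO female paclitaxel replicate 1. With library 23 included, the WT difference moved to 0.30 and the KO minus WT difference under paclitaxel to -0.38.

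Other genes of reactive astrocytes, of the cytokine route to Gfap and of the resting astrocyte gave no called gene in any paclitaxel, genotype or genotype-by-treatment comparison. The 11 genes known to rise in reactive astrocytes of several kinds (Lcn2, Serpina3n, Cd44, Osmr and others) were 9 higher and 2 lower with paclitaxel in KO cords (median log2 fold change 0.10, against 0.0020 for all genes) and 5 higher and 6 lower in WT cords (median -0.09, against 0.0056). Serpina3n, a secreted protease inhibitor of reactive astrocytes, had the smallest p of the list in both genotypes. It averaged 55.23 ± 5.685 CPM with paclitaxel and 49.59 ± 2.763 CPM with vehicle in KO (log2 fold change 0.16, SE 0.07, edgeR adjusted p = 0.385), and 51.22 ± 8.098 CPM with paclitaxel and 55.12 ± 6.669 CPM with vehicle in WT (log2 fold change -0.17, SE 0.07, edgeR adjusted p = 0.591). Among genes of the list with a mean of at least 1 CPM, Lcn2, a secreted lipid-binding protein, had the largest fold change. It was 0.66 in KO (SE 0.69, edgeR adjusted p = 0.788) and 0.33 in WT (SE 0.74, edgeR adjusted p = 0.941). Without that floor, the lowest log2 fold changes of the list were larger in size, -0.69 in KO and -0.48 in WT. The response of Serpina3n in KO minus that in WT was 0.33 (SE 0.10, unadjusted p = 0.00317, edgeR adjusted p = 0.512).

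Genes linked to astrocytes of neuroinflammation (11 of 12 tested, among them H2-D1, Serping1 and Gbp2) were 10 higher and 1 lower with paclitaxel in KO (median 0.04) and 1 higher and 10 lower in WT (median -0.08). The interaction values were positive for 11 of 11 (median 0.18, against -0.0074 for all genes), with 0 called and 0 at an unadjusted p under 0.05. Gbp2, an interferon-induced GTPase, had the smallest p of this list, at 0.50 (SE 0.26, edgeR adjusted p = 0.62). Under vehicle the list was 1 higher and 10 lower in KO than in WT (median -0.17), with Gbp2 at 5.815 ± 1.716 CPM in KO and 7.944 ± 2.866 CPM in WT (log2 fold change -0.50, SE 0.18, edgeR adjusted p = 0.911). Most marker lists lay in the same direction in the interaction, with none called. Positive were 10 of 10 microglial (median 0.16), 9 of 10 endothelial (median 0.36), 7 of 8 neuronal and 8 of 10 oligodendrocyte markers. So were 5 of 6 of oligodendrocyte precursors, 8 of 10 of satellite glia and Schwann cells and 6 of 8 of fibroblasts. Skeletal muscle (5 of 5 tested) and astrocyte markers (9 of 12) also leaned positive. Ependymal markers (3 of 6 positive) and those of dorsal root ganglion neurons (4 of 9 positive) did not. The part of other cells in the interaction values was not tested. Genes linked to astrocytes after ischaemia (12 genes, among them Cd109, Emp1 and Clcf1) were 7 higher and 5 lower with paclitaxel in both genotypes. Clcf1, a cytokine of the CNTF family, had the smallest p of this list in the interaction (-0.35, SE 0.13, edgeR adjusted p = 0.512).

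The STAT3 route (12 genes, among them cytokines, receptors and Stat3 itself) was 8 higher and 4 lower with paclitaxel in KO cords and 5 higher and 7 lower in WT cords. Lifr, the receptor of leukaemia inhibitory factor, had the smallest p in KO, with 139.3 ± 5.576 CPM with paclitaxel and 148.9 ± 9.277 CPM with vehicle (log2 fold change -0.09, SE 0.04, edgeR adjusted p = 0.343). Il6st, the shared receptor subunit of the route, had the smallest in WT, where it averaged 165.2 ± 13.37 CPM with paclitaxel and 186.5 ± 21.48 CPM with vehicle in WT (log2 fold change -0.18, SE 0.06, unadjusted p = 0.00594, edgeR adjusted p = 0.528). Stat3 had log2 fold changes of 0.10 in KO (SE 0.05, edgeR adjusted p = 0.50) and -0.03 in WT (SE 0.05, edgeR adjusted p = 0.914). The filament partners Nes, Synm, Des and Plec were 4 higher in KO and 1 higher and 3 lower in WT. Des, the filament of muscle and pericytes, had the largest fold change in both genotypes, with 1.678 ± 0.4481 CPM with paclitaxel and 1.26 ± 0.3197 CPM with vehicle in KO (log2 fold change 0.42, SE 0.17, edgeR adjusted p = 0.33), and 1.267 ± 0.1703 CPM with paclitaxel and 1.643 ± 0.6448 CPM with vehicle in WT (-0.31, SE 0.18, edgeR adjusted p = 0.683). Its interaction value was 0.73 (SE 0.25, unadjusted p = 0.00583, edgeR adjusted p = 0.512). Skeletal muscle markers lay in the same directions, with none called. Of the 5 tested, 5 were higher with paclitaxel in KO (median 1.00), 1 was higher and 4 were lower in WT (median -0.07), and 5 had positive interaction values (median 1.46). The list summed to 2.958 to 36.56 CPM in KO paclitaxel, 2.205 to 12.18 CPM in KO vehicle, 3.19 to 14.52 CPM in WT paclitaxel and 2.581 to 17.34 CPM in WT vehicle cords. Its part in the Des values was not tested.

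The 24 further genes of the resting astrocyte (among them Glul, Kcnj10 and Sox9) were 17 higher and 7 lower with paclitaxel in KO (median 0.07) and 10 higher and 14 lower in WT (median -0.02). Agt, angiotensinogen, had the largest fold change in KO (0.24, SE 0.10, edgeR adjusted p = 0.393) and Sox9, an astrocyte transcription factor, in WT (0.17, SE 0.09, edgeR adjusted p = 0.649). Under vehicle the list was 7 higher and 17 lower in KO than in WT (median -0.05, against 0.0031 for all genes). The endfoot complex that anchors Aqp4 (6 genes, with Dag1 and Dtna) was 3 higher and 3 lower with paclitaxel in KO and 2 higher and 4 lower in WT. Its smallest p was that of Dmd in KO (log2 fold change -0.07, SE 0.04, edgeR adjusted p = 0.557). The 4 further connexins were 4 higher in KO and 2 higher and 2 lower in WT, and the 4 further SLC1 transporters were 3 higher and 1 lower in each genotype.

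Between males and females edgeR called 0 of the 9 genes, against 0.918% of all genes (233). That count was lower by more than 1.5 times when any 1 of 7 libraries was left out, with 65 genes without WT female paclitaxel replicate 1 as the lowest, and its highest was 324, without WT male paclitaxel replicate 1. Sex was balanced over the library numbers. The count at an unadjusted p under 0.05 was 3339, and DESeq2 called 583 genes (2.3%), limma voom 217 (0.855%) and edgeR with all 24 libraries 28 (0.113%). Slc1a2 came nearest. It lay at 2677 to 3075 CPM (median 2819) in 12 male cords and at 2781 to 3176 CPM (median 3059) in 11 female cords, with 1 of 12 males above the female mean. The ranges overlapped, as they did for all 9 genes, while 0.0749% of all genes had the sexes apart. The log2 fold change was -0.09 (SE 0.03, unadjusted p = 0.00163, edgeR adjusted p = 0.0903). DESeq2 gave an adjusted p of 0.0108 and limma voom one of 0.0276, so both called it. With library 23 included the log2 fold change was 0.05 (edgeR adjusted p = 0.972).

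The interaction of sex and treatment, that is the male response to paclitaxel minus the female one, cannot be told apart from library numbers 1 to 12 against 13 to 24. It called 4.96% of all genes (1259 of 25372) and 1 of the 9, Aldh1l1. The count of all genes ran from 248 without WT female paclitaxel replicate 1 to 2419 without KO male vehicle replicate 1, and it was lower by more than 1.5 times without any 1 of 13 of the 23 libraries. DESeq2 called 2376 genes (9.37%) and limma voom 1202 (4.74%). Aldh1l1 lay at 44.85 to 56.73 CPM (median 48.87) in 6 males given paclitaxel and at 36.03 to 44.41 CPM (median 42.63) in 6 males given vehicle. In females it lay at 51.22, 45.21 and 46.94 CPM in the 3 KO and at 43.03 and 42.18 CPM in the 2 WT cords given paclitaxel, against 43.08 to 53.79 CPM (median 49.32) in the 6 given vehicle. Treated males were all above control males, as was the case in either direction for 2.42% of all genes, while the female groups overlapped (0.946% of all genes had female groups apart). Males minus females, the log2 difference of the responses was 0.39 (SE 0.09, edgeR adjusted p = 0.0244). The call was lost when 1 of 5 libraries was left out, with edgeR adjusted p between 0.0505 and 0.0642: WT female vehicle replicates 1 and 2, WT female paclitaxel replicates 1 and 2, and KO female paclitaxel replicate 2. With library 23 included the difference was 0.59 and the edgeR adjusted p 0.385, and no gene of the whole table was then called.

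Slc1a3 and Vim had positive differences and S100b and Aqp4 negative ones, without passing the test. Slc1a3 averaged 132.5 ± 10.91 CPM in treated and 123.2 ± 7.243 CPM in control males, and 125.7 ± 9.674 CPM in treated and 136.3 ± 9.342 CPM in control females (log2 difference 0.24, SE 0.08, edgeR adjusted p = 0.0606; DESeq2 called it at 0.0305). Vim averaged 62.44 ± 8.011 CPM in treated and 55.19 ± 13.07 CPM in control males, and 50.66 ± 10.37 CPM in treated and 59.57 ± 7.629 CPM in control females (log2 difference 0.46, SE 0.19, edgeR adjusted p = 0.169). S100b averaged 1011 ± 80.88 CPM in treated and 1113 ± 63.89 CPM in control males, and 1079 ± 107.2 CPM in treated and 1008 ± 54.19 CPM in control females (log2 difference -0.22, SE 0.09, edgeR adjusted p = 0.14). Aqp4 had a log2 difference of -0.23 (SE 0.10, edgeR adjusted p = 0.204) and Gfap one of 0.20 (SE 0.12, edgeR adjusted p = 0.373). Gja1 had one of 0.12 (SE 0.06, edgeR unadjusted p = 0.0462, edgeR adjusted p = 0.235). Gjb6 was at -0.06 (SE 0.07, edgeR adjusted p = 0.697) and Slc1a2 at -0.03 (SE 0.05, edgeR adjusted p = 0.82).

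In the same contrast 4 of the 24 further resting astrocyte genes were called, all with a positive difference, against 4.96% of all genes called in either direction. Among them were Hepacam (0.22, SE 0.06, edgeR adjusted p = 0.0239), an adhesion protein, Acsbg1 (0.28, SE 0.07, edgeR adjusted p = 0.0239), a fatty acid CoA ligase, and Slc6a11 (0.27, SE 0.07, edgeR adjusted p = 0.0278), a GABA transporter. The list was 20 positive and 4 negative. One gene each was called positive in 4 other lists: Cd109 (0.52), Cntfr (0.21), Dag1 (0.33) and Slc1a4 (0.27), with edgeR adjusted p of 0.0403, 0.0442, 0.0493 and 0.0399. The oligodendrocyte connexin Gjc3 was called with a negative difference (-0.24, SE 0.05, edgeR adjusted p = 0.0169). Genes of other cells were called too, all positive. They were 3 of 8 neuronal, 3 of 10 oligodendrocyte, 2 of 10 microglial, 2 of 10 endothelial, 1 of 8 fibroblast and 1 of 5 tested skeletal muscle markers. None was called among 6 oligodendrocyte precursor, 10 satellite glia and Schwann, 6 ependymal and 9 tested dorsal root ganglion neuron markers. The 11 genes of several kinds of reaction, the 11 tested of neuroinflammation and the 4 filament partners had none called either. The summed endothelial level was 400.4 to 444.0 CPM in treated and 275.3 to 383.0 CPM in control males, and 339.3 to 539.4 CPM in treated and 365.5 to 438.9 CPM in control females. The part of other cells in the Aldh1l1 call was not tested.

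**Figure D3:**
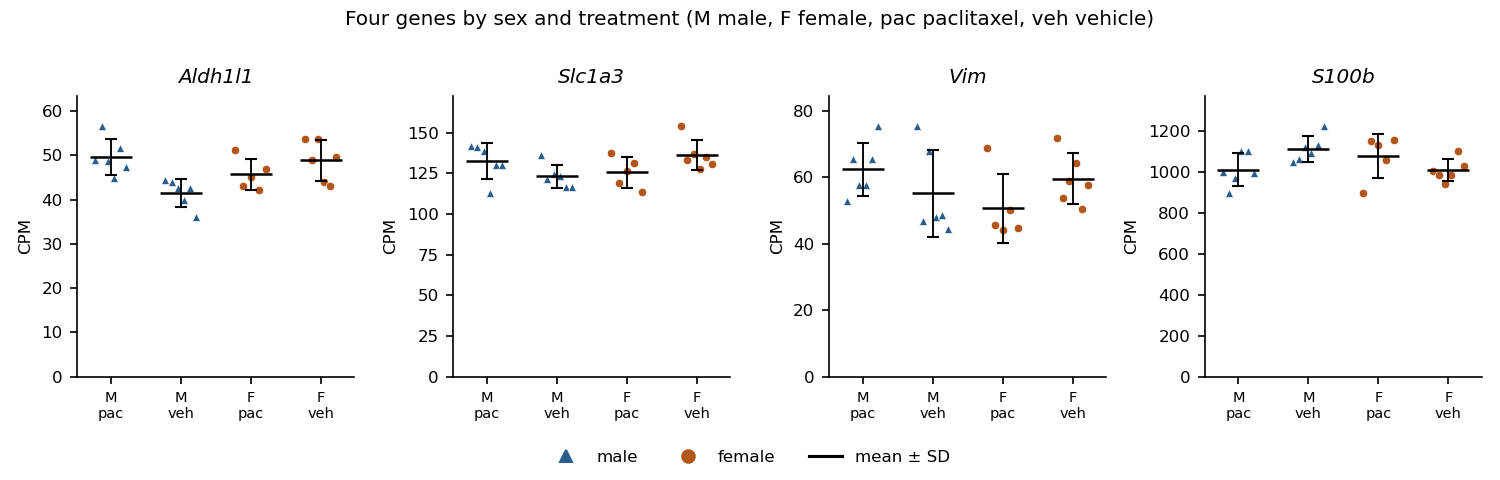
CPM of Aldh1l1, Slc1a3, Vim and S100b in males given paclitaxel, males given vehicle, females given paclitaxel and females given vehicle (23 cords), with mean ± SD; every axis starts at 0. Aldh1l1 is higher in all 6 treated males (44.85 to 56.73 CPM) than in all 6 control males (36.03 to 44.41 CPM), while the other groups overlap within each sex.

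Among themselves the 9 genes did not vary as 1 unit over the 23 cords. The values are Pearson's r of log2 CPM, given as a description, and the points share library depth, sex and treatment groups. Aldh1l1, Gja1 and Slc1a3 went together (r = 0.77 for Aldh1l1 with Gja1, 0.72 for Slc1a3 with Gja1 and 0.69 for Slc1a3 with Aldh1l1), and these remained at 0.74, 0.72 and 0.58 after group means were taken out. S100b went the other way from Slc1a3 (r = -0.73), Aldh1l1 (-0.66) and Vim (-0.62). The filaments Gfap and Vim were only weakly related (r = 0.26), as were Gfap and Slc1a2 (r = 0.11) and the transporters Slc1a2 and Slc1a3 (r = 0.13). Aqp4 and Gjb6 had r = -0.39, and -0.70 within groups.

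A shift between short and long transcripts also ran across the libraries. Genes with under 1500 exon bases (439 genes) relative to those with over 5000 (5399 genes) differed from their averages by -0.12 to 0.27 on the log2 scale between cords. Its r was -0.64 with Slc1a3, -0.52 with Slc1a2, -0.48 with Aqp4 and 0.43 with S100b, but 0.05 with Gfap. S100b, at 1484 bases, is itself one of the short genes, and Slc1a2, Slc1a3, Aqp4 and Gja1 are among the long ones. The shift spanned -0.09 to 0.27 in treated and -0.08 to 0.05 in control males, and -0.05 to 0.11 in treated and -0.12 to 0.02 in control females. Within genotypes it spanned -0.09 to 0.11 (median 0.0023) in KO paclitaxel and -0.04 to 0.03 (median 0.0081) in KO vehicle cords, and -0.07 to 0.27 (median 0.04) in WT paclitaxel and -0.12 to 0.05 (median -0.07) in WT vehicle cords. Its part in the member levels, those of Slc1a2 and Aqp4 with paclitaxel included, was not tested.

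**Figure D4:**
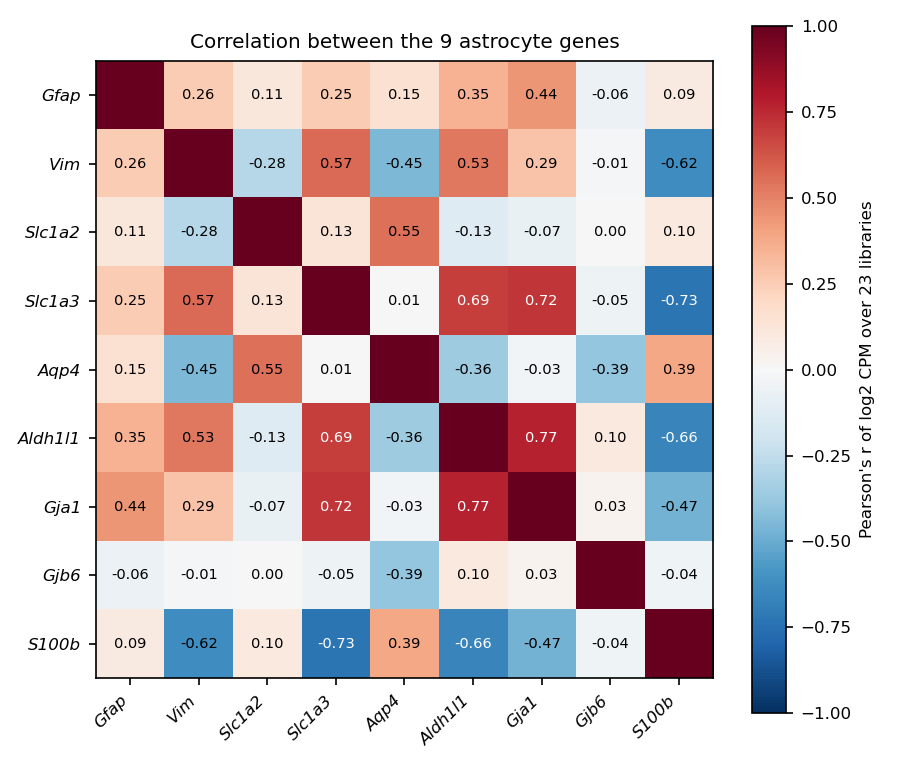
Pearson's r of log2 CPM between each pair of the 9 genes over 23 cords, with red for positive and blue for negative values. Slc1a3, Aldh1l1 and Gja1 form the strongest positive group (0.69 to 0.77), S100b is negative with Slc1a3, Aldh1l1 and Vim (-0.73 to -0.62), and Gfap has no value above 0.44.

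Of 10754 genes with a mean of at least 10 CPM, C3, the central complement component that reactive astrocytes and microglia make, was most like Gfap over the 23 cords (r = 0.88). It was followed by Cx3cr1 (r = 0.74), the fractalkine receptor of microglia, Selplg (0.73), Tmcc3 (0.72) and Cd44 (0.72), a hyaluronan receptor. The r of C3 with Gfap was 0.81 within groups, 0.90 in library numbers 1 to 12 and 0.82 in 13 to 24. Vim was most like Vwa1 (0.84), an extracellular matrix protein, Pik3ip1 (0.84), Ucp2 (0.81), Tgfbi (0.81) and Cavin1 (0.80), a caveolar coat protein. Slc1a2 was most like Deptor (0.94), an inhibitor of mTOR, Zyg11b (0.88), Efr3a (0.88), Cntn1 (0.88) and Pcdh9 (0.88). No gene stood in more than 1 of these 3 sets of 5.

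Library 23, from a WT female given paclitaxel, is set beside the 23 cords as a single library without a test. Astrocyte genes were low in it: Gfap had 42.45 CPM against 1015 to 1626 CPM in the cords, that is 3.49% of the cord median. Slc1a2 had 77.24 CPM (2.59% of the median), Aqp4 38.26 CPM (5.02%), Gjb6 7.629 CPM (7.78%) and Gja1 42.71 CPM (10.1%). Slc1a3, at 22.4 CPM (17.2%), and Aldh1l1, at 11.51 CPM (25.5%), were less reduced, and S100b, at 861.8 CPM (81.4%), lay just under the lowest cord at 896.1 CPM. Vim went the other way with 429.9 CPM against 44.05 to 75.53 CPM, 7.44 times the cord median. In all, 8 of the 9 genes lay below every cord and Vim above every cord.

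Other markers that were high in library 23 were those of peripheral ganglion, nerve, fibroblasts and skeletal muscle. For dorsal root ganglion neurons, 10 of 10 markers were above the cord medians, with a summed level of 4240 CPM against 79.18 to 130.9 CPM, and the nociceptor sodium channel gene Scn10a had 772 CPM against at most 0.7281 CPM. Fabp7, a lipid-binding protein of satellite glia and of immature astrocytes, had 313.7 CPM against 31.29 to 64.4 CPM. The list of satellite glia and Schwann cells had 8 of 10 genes above the cord medians but a lower sum, 5226 CPM against 8289 to 10050 CPM, and it holds myelin genes that oligodendrocytes also transcribe. The oligodendrocyte list summed to 3323 CPM against 24520 to 29320 CPM. The list of fibroblasts, which transcribe Vim, summed to 902.9 CPM against 119.4 to 225.3 CPM, with Dcn alone at 592.5 CPM. Fbln1, at 4.474 CPM, and Igf2, at 0.1477 CPM, lay below every cord (at least 7.363 and 0.2023 CPM). The other genes of that list were above the cord medians. The part of fibroblasts in the level of Vim was not tested. The skeletal muscle list had 6 of 6 genes above the cord medians and summed to 412.2 CPM against 2.205 to 36.56 CPM.

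**Figure D5:**
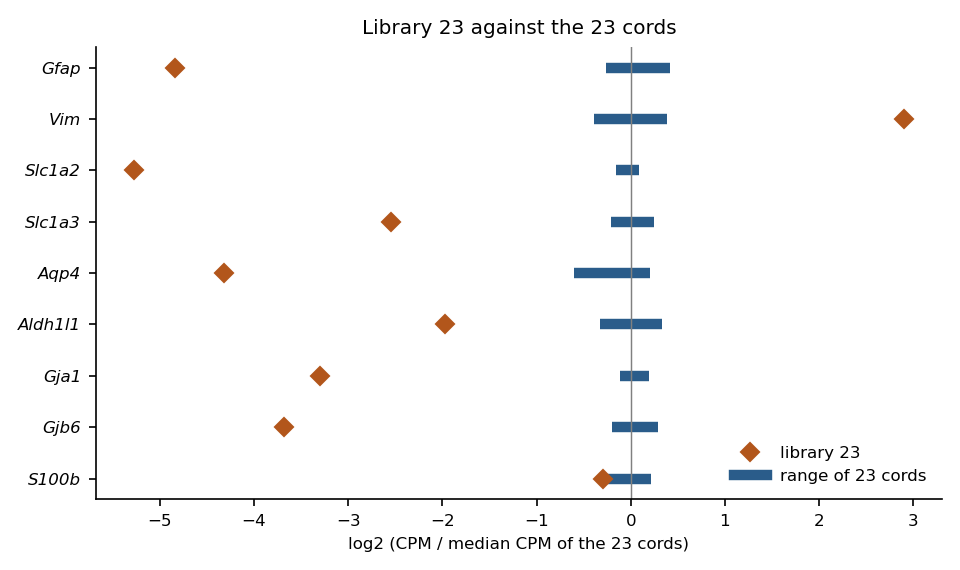
Log2 ratio of the CPM of each of the 9 genes to the median of the 23 cords. Diamonds are library 23 and bars the range of the 23 cords: 7 of the 9 genes lie far to the left, S100b lies just below its bar, and Vim lies at 2.90.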

How the data were processed

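Whole-number counts per gene, not normalized, were deposited by the authors as 1 table of 24 libraries with an exon length in bases per gene, per the file headers. Per the submitters' processing notes, STAR aligned the reads (no version is given) and featureCounts 1.6.2 did the counting. Exons of the Ensembl GRCm38 annotation, release 96, were summed by gene name without strand or pair options, per the file headers. Mates therefore count separately, and reads of several genes or places are left out. Totals were 88812295 to 112158154 counts per library. Each library is 1 mouse, and replicates differed beyond sampling noise (chi-square per degree of freedom 8.98 to 972 over 24 pairs). Replicate numbers did not pair the samples.

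Levels are CPM from library totals, and fold changes come from the fitted model. Tests used edgeR 4.0.16 (quasi-likelihood, filterByExpr, TMM factors 0.981 to 1.019) in R 4.3.3 on 23 libraries with 8 group means. Adjusted p is Benjamini-Hochberg over 25372 genes, calls are under 0.05 and intervals are 95%. Alternatives were DESeq2 1.42.0, limma voom (3.58.1), other scalings, no filter on low counts, all 24 libraries, a replicate block and leaving out each library. Scripts were tested on simulated data. Library 23 was left out because of its markers, and each result was recomputed with it. The genes, the lists and this choice were made with earlier results of these data known. All 9 genes are named for paclitaxel against vehicle, though not each in every genotype, and all 9 in both interactions. In the genotype and sex comparisons some of the 9 are counted but not given by value. Of the other lists, called genes, or those of smallest p or largest fold change (mean of at least 1 CPM), are named. For Gfap, Vim and Slc1a2 the 5 genes of highest correlation are given (mean of at least 10 CPM, log2 CPM with a prior count of 2). The shift of short against long transcripts (pseudocount 0.5 CPM) and the ratio with Gfap alone or Vim alone were added after the data were seen. Some genes of the lists are counted in them but not reported here by name.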

Additional observations from a re-analysis of the deposited data

Results flagged for a closer look

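The male response of Aldh1l1 to paclitaxel minus the female one, 0.3929 as a log2 difference (SE 0.09, edgeR adjusted p = 0.0244, 23 libraries), is listed because the test of the difference between the sexes passed. Treated males were above control males in 6 of 6 cords. The contrast cannot be told apart from library numbers 1 to 12 against 13 to 24, and 4.96% of all genes were called in it. Vim in library 23, at 429.9 CPM, is listed because that library stands outside the comparisons of the 23 cords and the value lies above all of them (44.05 to 75.53 CPM). Over 40 sets of cords checked for 1 library far from the others, 0 were found, where chance gives about 5%.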

How the results depend on the processing

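Of 2448 alternative values of the 9 genes' fold changes, 2284 kept direction and side of the threshold, 134 had the other sign (none of them called), 24 became called and 6 lost the call. Leaving out 1 library gave 0 called members in every comparison except sex by treatment, where the number ran from 0 to 5. The Aldh1l1 difference in it ran from 0.3341 to 0.4445, with edgeR adjusted p from 0.00493 to 0.0642. With no filter on low counts, 1 member was called for paclitaxel over both genotypes (Aqp4), in KO (Aldh1l1) and in WT (Aqp4), 1 for genotype over all cords and under vehicle (Vim), 2 in genotype by treatment (Gfap and Vim) and 6 in sex by treatment. The genes called then numbered 338 for paclitaxel over both genotypes, 470 in KO, 254 in WT, 99 for genotype over all cords, 215 under paclitaxel, 111 under vehicle, 366 in genotype by treatment, 749 for sex and 2181 in sex by treatment. The cause was not tested. The fit without the filter took every gene with any count, a larger set than the 25372, so no share of all genes is given. For sex, DESeq2 and limma voom each called 1 member (Slc1a2). In sex by treatment DESeq2 called 2 members, all 24 libraries 0, and the replicate block 3. Over 77 pairs of libraries with the same replicate number, deviations from the group means correlated at -0.0716 to 0.0914, so the numbers do not pair the samples, and 11 of 23 libraries correlated best with their own number. The replicate block moved the genes called to 9 for paclitaxel over both genotypes and to 1891 in sex by treatment, and gave the other sign for Vim under paclitaxel between genotypes (0.0003) and for S100b in genotype by treatment (-0.0211). With all 24 libraries the sign changed as follows, none called. Paclitaxel over both genotypes gave Gfap -0.1424, Vim 0.4557, Aldh1l1 -0.0316 and Gja1 -0.0749, and in WT Vim 0.8196 and Gjb6 -0.2345. Genotype over all cords gave Gfap 0.1347, Slc1a2 0.1039, Slc1a3 0.0922, Aldh1l1 0.0898 and S100b 0.0160, and under paclitaxel Slc1a2 0.2416, Gjb6 0.2381 and S100b 0.0382. Genotype by treatment gave Vim -0.7279, Slc1a2 0.2754 and Gjb6 0.1819. Sex gave Gfap 0.0486, Vim -0.4006, Slc1a2 0.0496, Slc1a3 0.0752, Aqp4 0.0403, Aldh1l1 0.0473, Gja1 0.0869 and Gjb6 0.0636, and sex by treatment Vim -0.5164, Slc1a2 0.2547, Aqp4 0.0450 and Gjb6 0.2011. Other changes of sign were small: Gfap for paclitaxel with DESeq2's size factors or Wald test (-0.0029) or limma voom (-0.0040), S100b for genotype under vehicle (0.0051) and in genotype by treatment (-0.0149) without TMM, and S100b in genotype by treatment with voom (-0.0010). Within library numbers 1 to 12 genotype gave Gfap 0.0344 and Gjb6 -0.0765, and within 13 to 24 Aqp4 -0.0132 and Aldh1l1 0.0374. Ranges over the left-out libraries that crossed 0 were, for paclitaxel over both genotypes, Gfap -0.0465 to 0.0196, Vim -0.0900 to 0.0049, Slc1a3 -0.0312 to 0.0098, Gjb6 -0.0331 to 0.0081 and S100b -0.0446 to 0.0064. In KO they were Vim -0.0253 to 0.1457, Aqp4 -0.1065 to 0.0266 and S100b -0.0553 to 0.0347, and in WT Aldh1l1 -0.0887 to 0.0011, Gja1 -0.0379 to 0.0224 and S100b -0.0654 to 0.0097. For genotype over all cords they were Gfap -0.0493 to 0.0211, Slc1a3 -0.0404 to 0.0006, Aldh1l1 -0.0335 to 0.0218, Gjb6 -0.0090 to 0.0307 and S100b -0.0219 to 0.0231. Under paclitaxel they were Vim -0.1325 to 0.0409, Gjb6 -0.0753 to 0.0079 and S100b -0.0385 to 0.0513, and under vehicle S100b -0.0335 to 0.0227. For genotype by treatment they were Slc1a2 -0.0306 to 0.0086 and S100b -0.0338 to 0.0565, and for sex S100b -0.0088 to 0.0366. Of 66 alternative values of the filament ratio differences, 64 moved by less than 1 SD, and 2, both with all 24 libraries, moved by more (0.2987 for paclitaxel in WT and -0.3753 for genotype under paclitaxel). Counting error, taken at the median count with counts as independent, was 1.54% of a level or less, below the spread between mice for each of the 9 genes.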
